A study of Homo sapiens with 52 samples.

Results

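The 10 genes described here encode secreted Wnt ligands (WNT5A, WNT5B and WNT7B), Wnt receptors (FZD2, FZD7 and LRP6), secreted Wnt inhibitors (DKK1, DKK3 and SFRP1) and the feedback regulator AXIN2. They were taken by gene name from the 78894 genes of the bulk RNA sequencing tables, and all 10 were present. The study depleted Neuropilin-1 (NRP1), a co-receptor for several growth factor receptors, in the established breast cancer cell lines SUM159PT (17 samples), MDA-MB-231 (18 samples) and HS578T (17 samples). Each line either received 20 nM siRNA by reverse transfection (siNT, siNRP1#3 or siNRP1#5), with harvest at 72 hrs, or carried a lentiviral pLKO.1 shRNA (shNT, shNRP1#3 or shNRP1#5) under puromycin and was harvested 48 hrs after seeding. NT stands for non-targeting. These 6 treatments in 3 lines gave 18 groups and 52 samples, with 3 replicates per group apart from HS578T shNRP1#3, which had replicates 1 and 2, and SUM159PT siNRP1#5, which had replicates 2 and 3. The shRNA replicates were consecutive passages of transduced cells, so p-values there measure the spread between passages. The siNRP1#5 and shNRP1#5 reagents share a target sequence. All #3 sequences were designed against transmembrane NRP1, and all #5 sequences against both transmembrane and soluble NRP1. Delivery, selection and harvest time all differ between the siRNA and shRNA arms and cannot be told apart.

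Wnt proteins are secreted lipid-modified ligands. Binding of a Wnt to a Frizzled receptor (FZD2, FZD7) together with the co-receptor LRP6 stops the AXIN-containing complex from degrading beta-catenin, which then works with TCF/LEF factors to switch on target genes such as AXIN2. WNT5A and WNT5B are best known for signalling that does not need beta-catenin and that steers cell movement, while WNT7B can use the beta-catenin route. DKK1 blocks LRP6, SFRP1 binds Wnt ligands outside the cell, and DKK3 is a divergent Dickkopf protein whose place in Wnt signalling is less settled. In breast cancer the pathway has been studied most for its links to stem-like and mesenchymal cell states.

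Expected counts per sample added up to 25310443 to 72003442 (median 44804505). NRP1 expected counts fell past the threshold (edgeR quasi-likelihood test, adjusted p under 0.05) in 11 of the 12 comparisons of a knockdown with its NT control. The exception was HS578T shNRP1#3, with a log2 fold change of -1.59 and an adjusted p of 0.069. In MDA-MB-231 siNRP1#3 the fall was small, with a log2 fold change of -0.70 (adjusted p = 0.00173), and NRP1 levels per transcript length and library (TPM) overlapped, at 24.8 to 31.3 TPM against 25.6 to 31.6 TPM in siNT. These are gene totals, which include the soluble form that the #3 sequences were not designed to target. By RT-qPCR of transmembrane NRP1 alone, the paper reports a significant fall for this siRNA in MDA-MB-231. VIM (1310 to 6090 TPM) and ZEB1 were detected in every line and CDH1 was at 3.33 TPM or less, but MDA-MB-231 held the claudins CLDN4 (62.6 to 226 TPM) and CLDN7 (10.4 to 61.5 TPM). Whether these claudin levels are low relative to other breast cancer subtypes was not tested, since all the lines here carry the claudin-low label. Some libraries also held RNA typical of another line of the study, as estimated from marker genes. Whether the treated cells themselves expressed these genes was not tested, and other-line RNA below means this estimate. By 17 genes that HS578T controls barely express, the estimated share of MDA-MB-231 RNA was 26.2%, 18% and 13.2% in the HS578T siNRP1#5 replicates. It was 2.18 to 7.45% in HS578T siNRP1#3 and 0.658 to 2.56% in HS578T siNT. Since these genes were chosen as low in the HS578T controls, that choice itself limits the share in siNT. By such markers HS578T siNRP1#5 replicate 2 also held 5.26% of SUM159PT RNA. MDA-MB-231 shNRP1#3 replicate 3 likewise held 1.12% of SUM159PT and 1.73% of HS578T RNA. Member calls that rest on these 2 groups were recomputed with those reads subtracted (or without the group, for means over lines), and values that changed a call are given beside the result. Single genes of the wider pathway list were not recomputed this way.

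On GRCh38 the ligand genes are at chr3:55465715-55490539 (WNT5A, minus strand), chr12:1529891-1647212 (WNT5B, plus) and chr22:45920366-45977162 (WNT7B, minus). FZD2 is at chr17:44557484-44561262 (plus), FZD7 at chr2:202033855-202038441 (plus), LRP6 at chr12:12116025-12267044 (minus), DKK1 at chr10:52314281-52318042 (plus), DKK3 at chr11:11956207-12009769 (minus) and AXIN2 at chr17:65528563-65561648 (minus). RefSeq promoter entries (GRCh38.p14) were matched for WNT5A, WNT5B and DKK1. SFRP1 was left out of this search, and none was listed for the remaining members. They are shown for WNT5A and DKK1 because the transcript values bear on which start was used. Each run lies within the 250 bases before a start, 5′ to 3′ on the strand of the gene, without bases annotated as an exon of the gene itself. The WNT5A stretches are at chr3:55487399-55487556 and chr3:55481399-55481648 (both minus strand), and that of DKK1 is at chr10:52314031-52314280 (plus strand, within an exon of the antisense gene PRKG1-AS1). Capitals mark matches to the TCF/LEF cores CTTTGAT or CTTTGTT on either strand.
WNT5A promoter 1: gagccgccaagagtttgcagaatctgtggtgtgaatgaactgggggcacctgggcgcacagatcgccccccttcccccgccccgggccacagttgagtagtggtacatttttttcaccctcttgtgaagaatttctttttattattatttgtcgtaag
WNT5A promoter 2: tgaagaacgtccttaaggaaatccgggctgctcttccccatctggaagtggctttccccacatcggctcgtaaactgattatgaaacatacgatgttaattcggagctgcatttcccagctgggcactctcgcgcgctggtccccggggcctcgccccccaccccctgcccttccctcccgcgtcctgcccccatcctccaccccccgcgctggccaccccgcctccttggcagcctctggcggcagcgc
DKK1 promoter: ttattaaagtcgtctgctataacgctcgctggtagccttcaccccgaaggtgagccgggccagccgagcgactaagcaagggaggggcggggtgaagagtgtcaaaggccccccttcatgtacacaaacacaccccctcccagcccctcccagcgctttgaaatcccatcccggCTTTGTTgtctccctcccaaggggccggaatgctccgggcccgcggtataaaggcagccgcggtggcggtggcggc
The DKK1 stretch held 1 match, CTTTGTT at -76 from the start. No match to either core was found in the whole 250-base windows of WNT5A or WNT5B. Over all 35116 promoter entries, 2.26% held CTTTGAT and 4.5% held CTTTGTT in the 250 bases, so a match is a description and not a binding site. The transcript that starts at the first WNT5A promoter (WNT5A-201) made up 65.1% ± 6.2 (SD, n = 3) of WNT5A in HS578T siNT and 68.1% ± 11.2 (SD, n = 3) in SUM159PT siNT by the deposited isoform percent. The transcript at the second (WNT5A-205) made up 2.6% ± 1.4 in HS578T siNT and 14.6% ± 3.5 in HS578T shNT (SD, n = 3 each). WNT5A-203, annotated to start 202 bases downstream of that second start, was not counted with it. It held 22% ± 5.61 (SD, n = 6) of WNT5A over the HS578T NT controls, so WNT5A-205 alone does not give the use of that region. For DKK1, the transcript from the promoter shown (DKK1-201) held 54.4% ± 2.9 of the gene in MDA-MB-231 siNT and 47.8% ± 0.4 in siNRP1#5 (SD, n = 3 each).

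The question of the first comparison was how the 3 lines differ without NRP1 depletion. HS578T and SUM159PT expressed WNT5A and WNT7B, which were low in MDA-MB-231, whereas WNT5B was high in HS578T and MDA-MB-231 and low in SUM159PT. DKK1 was most abundant in MDA-MB-231, DKK3 in SUM159PT, and SFRP1 passed 1 TPM only in HS578T. Taking the mean of siNT and shNT in each line, 7 of 10 members differed between SUM159PT and MDA-MB-231 (59.4% of all genes tested did), 8 of 10 between HS578T and MDA-MB-231 (70.2%) and 9 of 10 between HS578T and SUM159PT (63.5%). Over the 30 tests 24 members passed, or 80%, beside 64.4% of all genes.

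**Figure D1:**
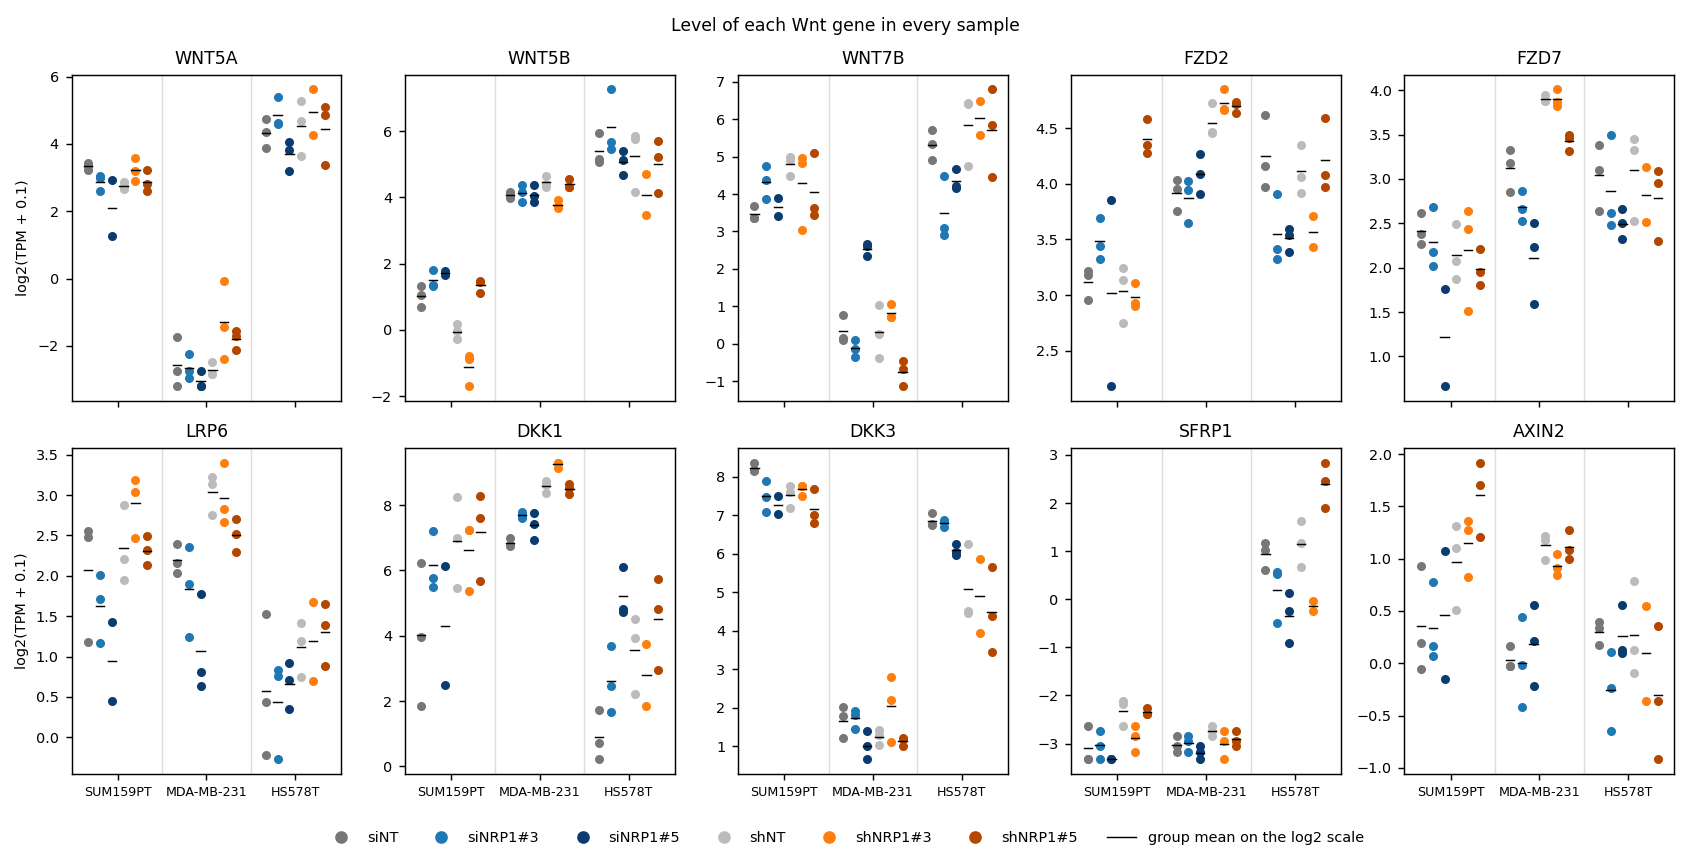
Level of the 10 Wnt genes in all 52 samples as log2(TPM + 0.1), 1 panel per gene, with points for replicates coloured by treatment, lines blocked along the x axis and dashes at the group mean. WNT5A and WNT7B sit lowest in MDA-MB-231, WNT5B in SUM159PT, and DKK3 spans 1.49 TPM in MDA-MB-231 to 329.4 TPM in SUM159PT.

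WNT5A in siNT was at 26.68, 20.54 and 14.47 TPM in HS578T, at 10.71, 9.23 and 10.11 TPM in SUM159PT and at 0.01, 0.05 and 0.2 TPM in MDA-MB-231, so no pair of lines overlapped. The log2 difference between HS578T and SUM159PT was 1.62 ± 0.281 (SE, adjusted p = 4e-06). In MDA-MB-231 the NT controls held only 2 to 19 counts of WNT5A, against which HS578T stood higher by a fitted log2 difference of 9.21 and SUM159PT by 7.59. WNT5B, the close relative of WNT5A, was at 35.5, 33.67 and 61.5 TPM in HS578T siNT, at 16.71, 15.69 and 17.78 TPM in MDA-MB-231 and at 1.51, 2.39 and 1.97 TPM in SUM159PT. It was lower in SUM159PT than in HS578T by a log2 difference of 5.62 ± 0.32 and higher in HS578T than in MDA-MB-231 by 1.85 ± 0.266 (SE). WNT7B was at 39.96, 29.7 and 52.49 TPM in HS578T siNT, 10.13, 10.17 and 12.72 TPM in SUM159PT and 0.98, 1.01 and 1.61 TPM in MDA-MB-231, with every line apart from the others in this arm. In the shNT controls of HS578T (26.64 to 85.48 TPM) and SUM159PT (22.21 to 31.42 TPM) WNT7B overlapped.

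Receptor levels lay closer together. FZD2, a Frizzled receptor with links to WNT5A signalling, was at 15.63 to 24.52 TPM in HS578T siNT, 13.44 to 16.34 TPM in MDA-MB-231 and 7.66 to 9.21 TPM in SUM159PT. Neighbouring HS578T and MDA-MB-231 overlapped in these samples, although over both controls HS578T was higher by a log2 difference of 0.74 (adjusted p = 9.76e-05). In the shNT controls the order of TPM was reversed, at 21.89 to 26.4 TPM in MDA-MB-231 and 15.06 to 20.32 TPM in HS578T. The overlap and the reversal hold in TPM only. In counts scaled by library size with TMM factors (CPM), HS578T was higher without overlap in both arms. It was at 57.49 to 104.7 CPM against 31.5 to 42.18 CPM in siNT, and 59.9 to 83.15 CPM against 48.2 to 59.26 CPM in shNT. FZD7, another Frizzled receptor, was higher in HS578T than in SUM159PT by a log2 difference of 1.22 and lower in SUM159PT than in MDA-MB-231 (-0.87), while the difference of 0.35 between HS578T and MDA-MB-231 did not pass (adjusted p = 0.0844, or 0.0338 with RLE size factors and 0.0397 with a replicate block). LRP6 had its lowest level in HS578T, by a log2 difference of -1.19 from MDA-MB-231 and -1.10 from SUM159PT, and stayed at 10.47 TPM or less in every sample of the study.

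Among the inhibitors, DKK3 was at 280.8, 329.4 and 288.3 TPM in SUM159PT siNT, 107.2, 108.7 and 132.2 TPM in HS578T siNT and 3.33, 2.21 and 3.95 TPM in MDA-MB-231 siNT, with no overlap between lines and log2 differences of 7.23 (SUM159PT against MDA-MB-231) and 5.84 (HS578T against MDA-MB-231). DKK1 ran the other way, at 109.6, 108.1 and 127.7 TPM in MDA-MB-231 siNT against 1.07, 1.56 and 3.18 TPM in HS578T siNT. SUM159PT replicates of siNT spread over 15.51, 3.48 and 74.76 TPM. HS578T was lower than MDA-MB-231 by a log2 difference of -4.57 (adjusted p = 1.29e-07). SUM159PT was lower than MDA-MB-231 by -1.36 (adjusted p = 0.0381), but this call was lost without replicate 1 (adjusted p = 0.205) or replicate 2 (adjusted p = 0.3). SFRP1 was at 1.43 to 2.99 TPM in the HS578T controls, with at most 9 counts in an MDA-MB-231 control and 21 in a SUM159PT control, and was too low in MDA-MB-231 to be tested within that line. AXIN2, the target gene, was between 0.43 and 3.68 TPM in every sample, and none of its 3 differences between lines passed, although that between HS578T and MDA-MB-231 (0.52, adjusted p = 0.0696) did with RLE size factors (adjusted p = 0.0404).

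The main comparison asked which of these genes moved when NRP1 was depleted. DKK1 rose in 4 of 12 comparisons, more often than any other member, and fell in none. These rises were in MDA-MB-231 (siNRP1#3, siNRP1#5 and shNRP1#3) and in HS578T siNRP1#5, whose libraries held MDA-MB-231 RNA by the marker estimate. WNT7B rose in MDA-MB-231 with siNRP1#5 and fell there with shNRP1#5, LRP6 fell in MDA-MB-231 with both siRNAs, and AXIN2 passed in no comparison. Of 116 member tests 19 passed, 10 higher and 9 lower, or 16.4% beside 11.3% of all genes tested. MDA-MB-231 held 12 of the 19. There, 2 of 9 members tested passed with siNRP1#3 (25.7% of all genes), 5 with siNRP1#5 (29.4%), 4 with shNRP1#3 (3.65%) and 1 with shNRP1#5 (20.7%). In SUM159PT 1 of 10 passed with siNRP1#3 (8.66%), 1 with siNRP1#5 (17.9%), 0 with shNRP1#3 (1.40%) and 2 with shNRP1#5 (5.94%). In HS578T none passed with siNRP1#3 (4.65%), 3 passed with siNRP1#5 (18.7%), and none passed with shNRP1#3 (0.0356%) or shNRP1#5 (0.946%). In bulk RNA, fewer cells expressing a gene and less RNA of it per cell cannot be told apart.

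**Figure D2:**
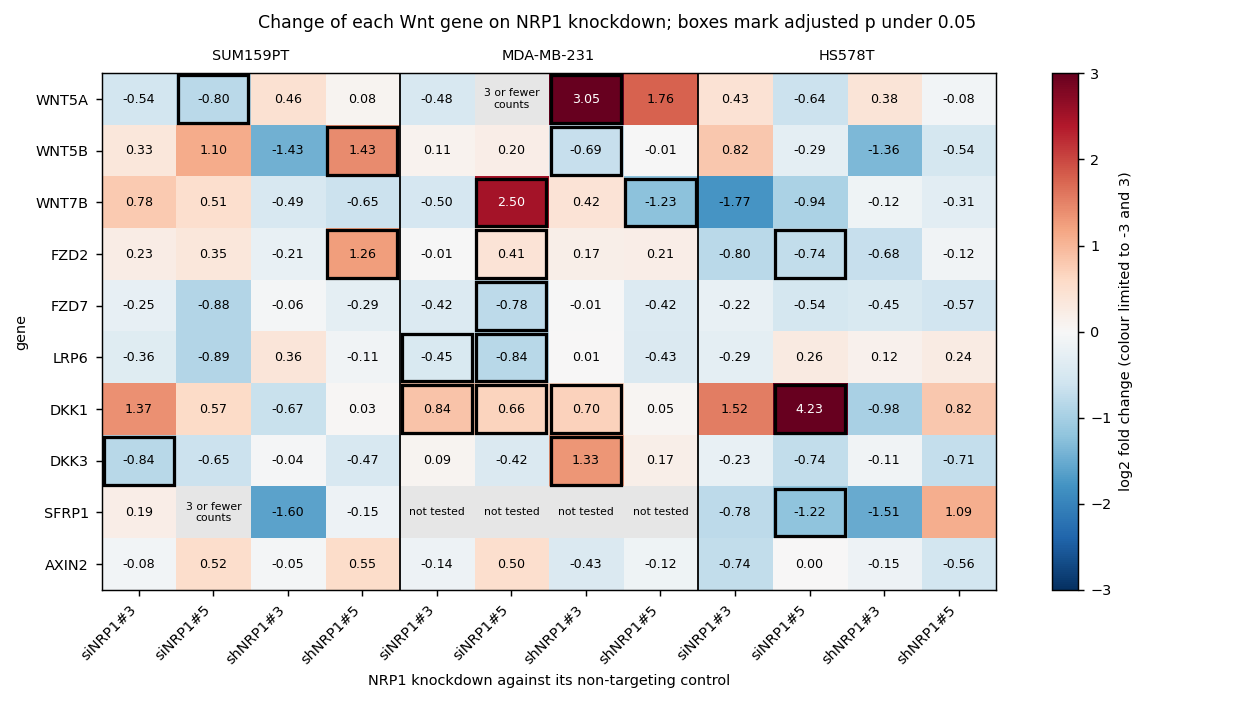
log2 fold change of each Wnt gene (rows) in the 12 comparisons of an NRP1 knockdown with its NT control (columns, by line), from the edgeR fit of that line, with boxes where the adjusted p was under 0.05. The 19 boxes are spread over 9 genes, 12 of them lie in MDA-MB-231, and the largest boxed values are DKK1 in HS578T siNRP1#5 (4.23) and WNT5A in MDA-MB-231 shNRP1#3 (3.05). No fold is shown where a group held 3 or fewer counts in every replicate.

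Among ligands, WNT7B in MDA-MB-231 gave the clearest change. It was at 0.98, 1.01 and 1.61 TPM in siNT and at 5.97, 6.23 and 4.99 TPM in siNRP1#5, with no overlap and a log2 fold change of 2.5 ± 0.311 (SE, adjusted p = 8.63e-06). The call held when any sample was left out (adjusted p of at most 0.000156). With siNRP1#3, levels of 0.69, 0.81 and 0.98 TPM did not pass. In the shRNA arm WNT7B was at 1.96, 1.11 and 0.67 TPM in shNT and at 0.63, 0.53 and 0.36 TPM in shNRP1#5. This fall, by 1.23 on the log2 scale (adjusted p = 0.0108), rested on single libraries, since the adjusted p was 0.0654 without shNRP1#5 replicate 3 and 0.0861 without shNT replicate 1, where the log2 fold change was -0.72. After subtraction of the other lines' reads its adjusted p was 0.281. HS578T WNT7B showed 7.37, 8.4 and 22.24 TPM with siNRP1#3 against 39.96, 29.7 and 52.49 TPM in siNT, without overlap, yet the log2 fold change of -1.77 had an adjusted p of 0.0636. It passed at a similar fold with DESeq2 (adjusted p = 0.0122), with only the 2 groups fitted (0.0405), with a replicate block (0.00574) and without the filter on low counts (3.29e-09).

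WNT5A and WNT5B each passed in 2 comparisons. In SUM159PT, WNT5A was at 10.71, 9.23 and 10.11 TPM in siNT and at 2.3 and 7.56 TPM in siNRP1#5, a log2 fold change of -0.80 (adjusted p = 0.0498). It was lost in 15 of the 17 fits that left out a sample, with a log2 fold change of -0.38 and an adjusted p of 0.335 without siNRP1#5 replicate 2. In MDA-MB-231, WNT5A was at 0.09, 0.27 and 0.85 TPM in shNRP1#3 and 0.08, 0.04 and 0.04 TPM in shNT, which held 8 or 9 counts each. The log2 fold change of 3.05 ± 0.644 (SE, adjusted p = 0.0107) fell to 1.62 (adjusted p = 0.135) without shNRP1#3 replicate 3, and was lost without shNT replicate 2 (adjusted p = 0.0533) or replicate 3 (adjusted p = 0.0677). Those shNRP1#3 libraries carried other-line RNA that would by itself give a mean of 0.0368 TPM (from SUM159PT) and 0.149 TPM (from HS578T) of the 0.403 TPM measured. With these reads subtracted, the log2 fold change was 0.29 (adjusted p = 0.891), or 1.84 (adjusted p = 0.0571) with markers of a single line. In shNRP1#5 of the same line WNT5A was at 0.13 to 0.24 TPM (29 to 32 counts), without overlap with shNT. That log2 fold change of 1.76 did not pass (adjusted p = 0.0638). After subtraction it passed, at 2.01 (adjusted p = 0.0365), or 1.78 (adjusted p = 0.0193) with markers of a single line.

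WNT5B in SUM159PT was at 1.02, 0.72 and 0.87 TPM in shNT and at 2.64, 2.07 and 2.71 TPM in shNRP1#5, a rise of 1.43 ± 0.353 on the log2 scale (SE, adjusted p = 0.0234) with no overlap. The call was lost without shNRP1#5 replicate 2 (adjusted p = 0.0556) or 3 (0.0683), or without shNT replicate 1 (0.0782) or 2 (0.109). The other hairpin stood on the far side of the control, with 0.44, 0.21 and 0.48 TPM in shNRP1#3, a log2 fold change of -1.43 that did not pass (adjusted p = 0.0722) but did with DESeq2 (0.0121) and after subtraction of other lines' reads (-1.93, adjusted p = 0.0392). With siNRP1#5 WNT5B was at 3.07 and 3.31 TPM against 1.51 to 2.39 TPM in siNT, without overlap. That log2 fold change of 1.1 did not pass (adjusted p = 0.0511), but did with DESeq2 (0.0153) and RLE size factors (0.0487). In MDA-MB-231, WNT5B was at 13.33, 12.66 and 14.91 TPM in shNRP1#3 against 19.78, 25.13 and 21.11 TPM in shNT, a log2 fold change of -0.69 (adjusted p = 0.0209) without overlap. This call was lost without shNRP1#3 replicate 1 (adjusted p = 0.0735) or 2 (0.0924), or without shNT replicate 2 (0.12) or 3 (0.0584), and held after subtraction (-0.71, adjusted p = 0.0164).

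Of the receptors, LRP6 in MDA-MB-231 was at 24.34, 23.43 and 23.46 CPM (counts scaled by library size with TMM factors) in siNT, at 14.96, 17.42 and 18.87 CPM in siNRP1#3 and at 17.02, 10.71 and 11.63 CPM in siNRP1#5. Both siRNA groups were below the control in every replicate. The log2 fold change was -0.84 ± 0.159 (SE, adjusted p = 0.000588) with siNRP1#5 and was kept when any sample was left out. With siNRP1#3 it was -0.45 ± 0.158 (SE, adjusted p = 0.041), was lost in 7 of 18 fits that left out a sample (adjusted p of at most 0.164), and LRP6 TPM overlapped there, at 2.27 to 5 TPM against 3.99 to 5.15 TPM. In shNRP1#5 LRP6 was at 21.05 to 25.72 CPM against 29.75 to 36.01 CPM in shNT, without overlap. That log2 fold change of -0.43 did not pass (adjusted p = 0.0565), but did with DESeq2 (0.0245) and RLE size factors (0.0463).

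FZD7 in MDA-MB-231 fell with siNRP1#5, from 7.1, 8.98 and 9.93 TPM in siNT to 4.61, 2.92 and 5.57 TPM, by 0.78 on the log2 scale (SE 0.174, adjusted p = 0.00223). TPM did not overlap, whereas CPM did, at 20.45 CPM in the highest siNRP1#5 replicate and 20.34 CPM in the lowest siNT replicate. In shNRP1#5 of that line FZD7 was at 28.7 to 31.29 CPM against 39.24 to 42.11 CPM in shNT, without overlap. That log2 fold change of -0.42 did not pass (adjusted p = 0.0882). It did with only the 2 groups fitted (0.00178) and without the filter on low counts (0.0432). FZD2 passed in 3 comparisons with differing directions. In SUM159PT it was at 8.67, 9.37 and 6.6 TPM in shNT and at 19.24, 20.35 and 23.85 TPM in shNRP1#5, more TPM than any of the other samples of that line. In CPM the highest siNRP1#5 replicate (51.4 CPM) lay above the lowest shNRP1#5 replicate (47.04 CPM). The log2 fold change of shNRP1#5 against shNT was 1.26 ± 0.273 (SE, adjusted p = 0.0115), with an adjusted p of 0.0595 without shNT replicate 3.

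In HS578T, FZD2 was at 15.63, 17.82 and 24.52 TPM in siNT and at 11.56, 11.97 and 10.39 TPM in siNRP1#5, a log2 fold change of -0.74 (adjusted p = 0.043) that was lost in 7 of 17 fits without a sample (adjusted p of at most 0.217). With other-line reads subtracted the adjusted p was 0.0983. MDA-MB-231 FZD2 was at 14.91, 19.2 and 16.91 TPM in siNRP1#5 and 13.44, 16.34 and 15.35 TPM in siNT. These overlapped, and the log2 fold change of 0.41 (adjusted p = 0.0486) was lost in 15 of 18 fits without a sample (adjusted p of at most 0.271) and in a fit with a replicate block (adjusted p = 0.0517).

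DKK1 rose in MDA-MB-231 with 3 of 4 reagents. From 109.6, 108.1 and 127.7 TPM in siNT it was at 194.4, 221 and 208.8 TPM in siNRP1#3 and at 217.6, 122.9 and 172.8 TPM in siNRP1#5. The log2 fold changes were 0.84 ± 0.128 (SE, adjusted p = 0.000102) and 0.66 ± 0.128 (SE, adjusted p = 0.000686). In the shRNA arm shNT already stood at 389.1, 424.8 and 333.6 TPM, and shNRP1#3 reached 631.8, 630.5 and 566.9 TPM (log2 fold change 0.70 ± 0.127, SE, adjusted p = 0.00348, or 0.73 after subtraction), while shNRP1#5 at 322.8, 396.5 and 369.5 TPM overlapped shNT. None of these 3 rises was lost when a sample was left out, with the groups compared not overlapping in TPM apart from siNRP1#5 replicate 2, which at 122.9 TPM lay below the highest siNT value. In SUM159PT, replicates ranged from 3.48 to 309.2 TPM within the study, and no change passed in the fit of that line.

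HS578T DKK1 was at 1.07, 1.56 and 3.18 TPM in siNT, at 3.07, 5.45 and 12.83 TPM in siNRP1#3 and at 27.99, 68.25 and 26.41 TPM in siNRP1#5. The log2 fold change with siNRP1#5 was 4.23 (95% confidence interval 2.59 to 5.87, adjusted p = 0.00192), and with siNRP1#3 it was 1.52 and did not pass (adjusted p = 0.245, or 0.0426 with a replicate block and 0.00023 without the filter on low counts). The rise passed in every fit without a sample (adjusted p of at most 0.0129). MDA-MB-231, whose marker genes were found in these libraries, is the line with the most DKK1. From the share of MDA-MB-231 RNA alone, DKK1 would be 0.757, 1.32 and 2.94 TPM in siNT, 2.51, 3.66 and 8.58 TPM in siNRP1#3 and 30.1, 20.7 and 15.2 TPM in siNRP1#5. Measured DKK1 thus lay close to these levels in siNT and above them in siNRP1#3. It was below them in siNRP1#5 replicate 1 and above them in siNRP1#5 replicates 2 and 3. These levels take the mean of MDA-MB-231 siNT (115.1 TPM) for every library. MDA-MB-231 averaged 208.1 TPM with siNRP1#3 and 171.1 TPM with siNRP1#5, which would give higher levels. Which treatment any such RNA had received was not tested, and the subtraction also used control levels. With the reads of the other lines subtracted, the log2 fold change was 7.69 (adjusted p = 0.0113), or 4.97 (adjusted p = 0.00261) with markers of a single line, both against an siNT level near 0 after subtraction.

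**Figure D3:**
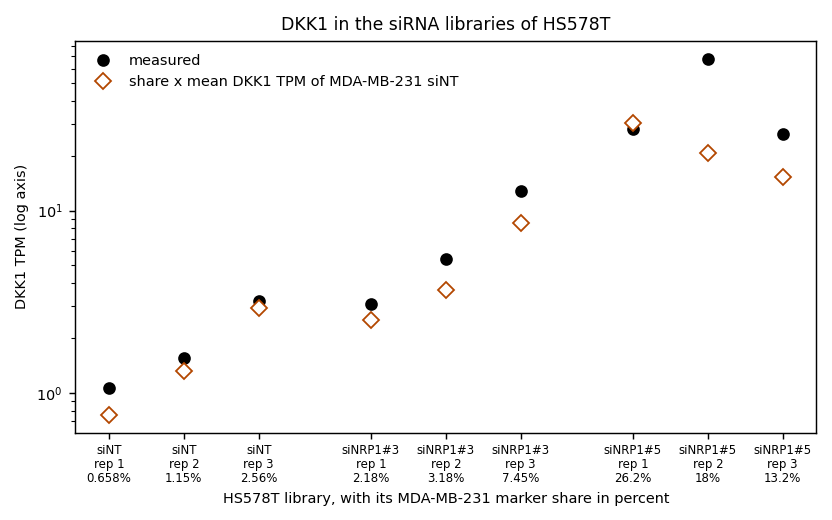
DKK1 TPM (log axis) in the 9 siRNA libraries of HS578T (x axis, with the percent of MDA-MB-231 RNA by 17 marker genes), as measured (filled circles) and as that percent of the mean DKK1 level of MDA-MB-231 siNT would give (open diamonds). Measured values exceed the diamonds in 8 libraries, and in siNRP1#5 replicate 1 the diamond (30.1 TPM) lies above the measured 27.99 TPM.

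DKK3 passed in SUM159PT with siNRP1#3, at 135.6, 178.6 and 236.6 TPM against 280.8, 329.4 and 288.3 TPM in siNT. This fall by 0.84 on the log2 scale (adjusted p = 0.0426) had no overlap but was lost in 10 of 17 fits without a sample (adjusted p of at most 0.189). MDA-MB-231 DKK3 was at 2.05, 4.48 and 6.89 TPM in shNRP1#3 and 2.33, 2.6 and 1.93 TPM in shNT, which overlapped. Its log2 fold change of 1.33 (adjusted p = 0.0412) was lost in 12 of 18 fits without a sample and was 0.78 (adjusted p = 0.275) without shNRP1#3 replicate 3, the library with the most other-line RNA. DKK3 is abundant in both other lines, whose RNA would give a mean of 1.02 TPM (SUM159PT) and 0.233 TPM (HS578T) of the 4.47 TPM measured. With those reads subtracted, the direction turned to -0.64 (adjusted p = 0.7), or stayed at 0.61 (adjusted p = 0.209) with markers of a single line. SFRP1 passed in HS578T siNRP1#5 only, at 0.43, 0.74 and 1 TPM against 2.14, 1.43 and 1.93 TPM in siNT, a log2 fold change of -1.22 (adjusted p = 0.0364) without overlap. It was lost in 5 of 17 fits without a sample (adjusted p of at most 0.127) and after subtraction (adjusted p = 0.157).

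AXIN2 passed in none of the 12 comparisons, with log2 fold changes of -0.74 to 0.55. Nearest to the threshold was MDA-MB-231 siNRP1#5, at 1.06, 1.37 and 0.76 TPM against 0.88, 1.02 and 0.88 TPM in siNT, with a log2 fold change of 0.50 and an adjusted p of 0.0554. It passed with DESeq2 (0.52, adjusted p = 0.0316) and with RLE size factors (0.52, adjusted p = 0.0446). The TPM values of the groups overlapped, and each sample of the study held between 36 and 388.75 expected counts of AXIN2.

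Averaged over the 3 lines, none of the 10 members passed with siNRP1#3 (21.3% of all genes did), 5 passed with siNRP1#5 (30.3%), 3 with shNRP1#3 (5.91%) and 2 with shNRP1#5 (15.5%). With siNRP1#5, the receptors FZD7 (mean log2 fold change -0.74, adjusted p = 0.000372) and LRP6 (-0.49, adjusted p = 0.0203) fell and DKK1 rose (1.81, adjusted p = 0.00438). FZD7 was lost without replicate 2 (-0.55, adjusted p = 0.0561), LRP6 without replicate 1 (-0.36, adjusted p = 0.143) or 2 (-0.48, adjusted p = 0.125) and DKK1 without replicate 1 (1.57, adjusted p = 0.0851). Without the HS578T siNRP1#5 group the DKK1 mean was 0.60 (adjusted p = 0.524), while FZD7 was at -0.84 (adjusted p = 0.00183) and LRP6 at -0.88 (adjusted p = 0.000869). WNT7B, at 0.68 (adjusted p = 0.059) over all groups, then passed at 1.49 (adjusted p = 0.00159). WNT5A (adjusted p = 0.0114) and SFRP1 (adjusted p = 0.0215) also passed, but each mean took in a group with 3 or fewer counts in every replicate (MDA-MB-231 siNRP1#5 for WNT5A, SUM159PT siNRP1#5 for SFRP1), so no fold is given for them. WNT5A was lost without replicate 2 (adjusted p = 0.212) and after subtraction (0.378), and SFRP1 without replicate 1 (0.0516) or 3 (1), after subtraction (0.0701) and without the HS578T siNRP1#5 group (0.0672). With shNRP1#3, WNT5B fell by 1.14 on the log2 scale (adjusted p = 0.00218), which was lost without replicate 2 (adjusted p = 0.0734) and held without the MDA-MB-231 shNRP1#3 group (-1.37, adjusted p = 0.00886, with HS578T siNRP1#5 left out too). WNT5A, at 1.32 (adjusted p = 0.00128), no longer passed without replicate 2 (adjusted p = 0.0986), without both groups (0.44, adjusted p = 0.314) or with other-line reads subtracted (0.36, adjusted p = 0.507), but did with markers of a single line (0.89, adjusted p = 0.00934). The mean of SFRP1 (-1.31, adjusted p = 0.0332) rested on at most 21 counts per library in both SUM159PT and MDA-MB-231 and was lost without replicate 1 (0.184) or 2 (0.394). With shNRP1#5, FZD2 rose (0.44, adjusted p = 0.0178) and FZD7 fell (-0.43, adjusted p = 0.0417). FZD7 was lost without replicate 1 (adjusted p = 0.173), 2 (0.254) or 3 (0.0613), and without both groups named above (0.0574). FZD2 was lost without replicate 1 (0.136) or 3 (0.0883).

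A test of unequal change over the lines passed for 4 members with siNRP1#5 (18.2% of all genes) and 1 with shNRP1#5 (3.81%), and for none with siNRP1#3 (3.42%) or shNRP1#3 (0.747%). WNT7B changed unequally with siNRP1#5 (adjusted p = 0.00121), with log2 fold changes of 2.5 in MDA-MB-231, 0.51 in SUM159PT and -0.94 in HS578T. FZD2, DKK1 and LRP6 were the others for siNRP1#5. The WNT7B call was lost without replicate 2, DKK1 without 1 or 2, LRP6 without 2 or 3, and FZD2 without 1 or 3. Leaving out a replicate number left HS578T shNRP1#3 or SUM159PT siNRP1#5, or both, with 1 sample. None of these 4 passed without the HS578T siNRP1#5 group, where WNT7B had an adjusted p of 0.145 and the others of 1. That fit compares only SUM159PT with MDA-MB-231, so it cannot test whether HS578T changed differently. With the reads of other lines subtracted, by either set of markers, WNT7B, DKK1 and FZD2 still passed and LRP6 did not. FZD2 was unequal with shNRP1#5 (adjusted p = 0.0213), with -0.12 for HS578T, 0.21 for MDA-MB-231 and 1.26 for SUM159PT, and was lost without any one replicate number (adjusted p of at most 0.203). Without the HS578T siNRP1#5 group it passed (adjusted p = 0.0252).

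Next, both arms were compared for the #5 sequence, which reached the cells as siRNA and as shRNA. A difference between the siNRP1#5 change and the shNRP1#5 change passed for 3 of 9 members in MDA-MB-231 (23.7% of all genes), for 0 of 10 in SUM159PT (2.51%) and for 0 of 10 in HS578T (0.854%). WNT7B differed most clearly, by 3.73 ± 0.442 on the log2 scale (SE, adjusted p = 1.14e-05), since it rose in one arm and fell in the other. It passed in all 27 alternatives run. DKK1 differed by 0.60 (adjusted p = 0.02), and this was lost without shNRP1#5 replicate 1 (adjusted p = 0.0507), shNT replicate 2 (0.0646), siNT replicate 1 (0.0545) or siNT replicate 2 (0.0559). WNT5A differed with an adjusted p of 0.0218, on 1 to 3 counts in siNRP1#5, 2 to 19 in siNT, 29 to 32 in shNRP1#5 and 8 or 9 in shNT, and was lost without siNRP1#5 replicate 2 (adjusted p = 0.0513) or siNT replicate 3 (0.0966) and after subtraction (0.342). NRP1 itself fell further with the siRNA in MDA-MB-231, with log2 fold changes of -4.88 (siNRP1#5) and -1.05 (shNRP1#5). In HS578T, SFRP1 differed by -2.31 (adjusted p = 0.0545). It passed with DESeq2 (0.003), limma on TPM (0.0159), a replicate block (0.0285) and no filter on low counts (0.00033). DKK1 there differed by 3.41 (adjusted p = 0.122) and passed with DESeq2 (0.0464), a replicate block (0.00643) and no filter (7e-11). Both involve the siNRP1#5 libraries with RNA typical of MDA-MB-231.

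**Figure D4:**
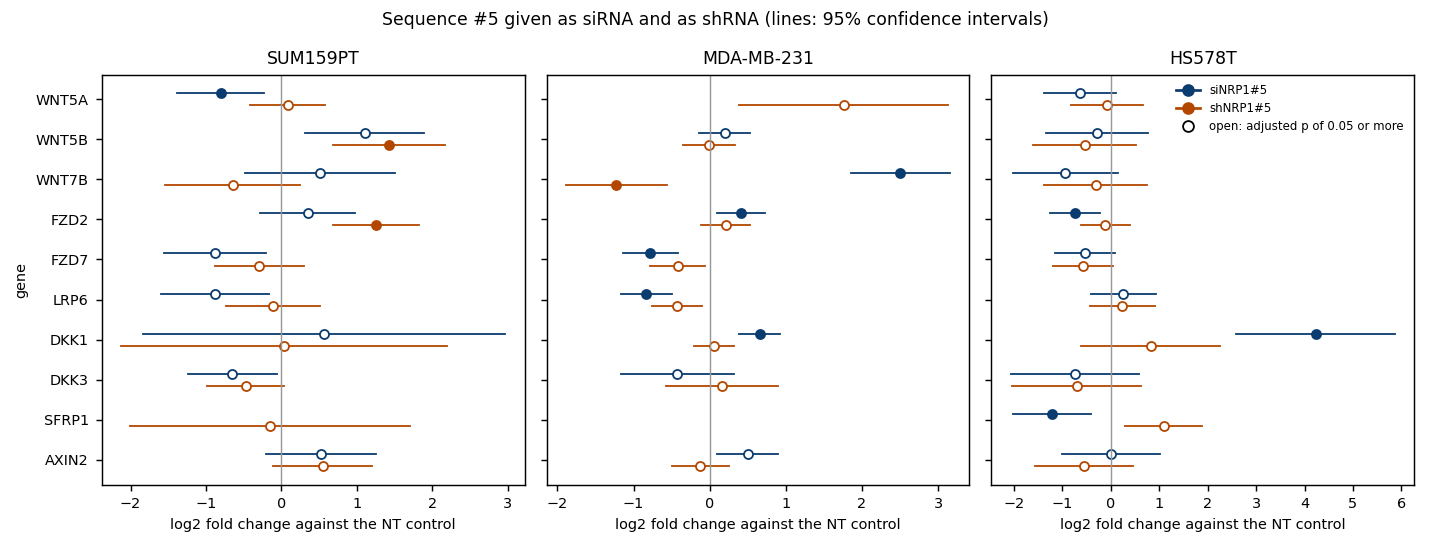
log2 fold change of each Wnt gene against the NT control of its arm for siNRP1#5 (blue) and shNRP1#5 (brown), 1 panel per line, with 95% confidence intervals and filled points where the adjusted p was under 0.05. In MDA-MB-231 the intervals of WNT7B lie on opposite sides of 0, at 2.5 and -1.23. Genes not tested in a line, or with 3 or fewer counts in every replicate of a group, have no point.

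Within each arm the #5 and #3 groups were also set against each other directly, where 12 of 58 member tests passed (8 higher and 4 lower in #5), or 20.7% beside 18.3% of all genes. With siRNA, 3 of 9 passed in MDA-MB-231 (39.0% of all genes), 2 of 10 in HS578T (18.1%) and none in SUM159PT (29.7%). With shRNA, 4 of 9 passed in MDA-MB-231 (14.2%), 2 of 10 in SUM159PT (8.71%) and 1 of 10 in HS578T (0.544%). SUM159PT WNT5B, at 0.44, 0.21 and 0.48 TPM in shNRP1#3 and 2.64, 2.07 and 2.71 TPM in shNRP1#5, differed by 2.86 ± 0.383 on the log2 scale (SE, adjusted p = 0.00019), and FZD2 by 1.47 (adjusted p = 0.0026) in the same direction. Both held in every fit without a sample. MDA-MB-231 WNT7B was higher in siNRP1#5 than in siNRP1#3 by 3.01 (adjusted p = 8.21e-07) and lower in shNRP1#5 than in shNRP1#3 by a log2 difference of -1.64 (adjusted p = 0.00267, or 0.442 after subtraction). DKK1 there was lower in shNRP1#5 than in shNRP1#3 by -0.64 (adjusted p = 0.00285) and WNT5B higher by 0.68 (adjusted p = 0.0101). DKK3 was lower in shNRP1#5 (-1.16, adjusted p = 0.0326), which turned to 0.85 (adjusted p = 0.444) after subtraction and was lost in 5 of 18 fits without a sample.

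Of the remaining differences between sequences, AXIN2 was higher in siNRP1#5 than in siNRP1#3 of MDA-MB-231 (0.64, adjusted p = 0.0128). It was lost without siNRP1#3 replicate 1 (adjusted p = 0.0585) or 2 (0.0535) or siNRP1#5 replicate 2 (0.0802). FZD2 in the same contrast (0.42, adjusted p = 0.0369) was lost without siNRP1#3 replicate 1 (0.0519) or 2 (0.161) or siNRP1#5 replicate 2 (0.209) or 3 (0.0582). HS578T SFRP1 was at 0.87 and 0.75 TPM in shNRP1#3 and 7.07, 3.63 and 5.4 TPM in shNRP1#5, the highest levels of SFRP1 in the study. The log2 difference of 2.60 (adjusted p = 0.0186) was lost without shNRP1#3 replicate 1 (0.173) or 2 (0.122), each of which left that group with 1 sample. HS578T siRNA differences in DKK1 (2.7, adjusted p = 0.0176) and WNT5A (-1.07, adjusted p = 0.047) involve the libraries with MDA-MB-231 RNA by the marker estimate. After subtraction that of DKK1 passed (adjusted p = 0.00645, or 0.0128 at a log2 difference of 3.40 by single-line markers) and that of WNT5A did not (-0.75, adjusted p = 0.172). That of DKK1 was lost without siNRP1#3 replicate 1 (0.0832) or 2 (0.0519) or siNRP1#5 replicate 2 (0.059), and that of WNT5A in 10 of 17 fits without a sample (adjusted p of at most 0.148).

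The NT controls of both arms differed from each other, which sets the level from which each knockdown is read. In shNT against siNT, 3 of 10 members passed in SUM159PT (14.4% of all genes), 4 of 9 in MDA-MB-231 (20.6%) and 1 of 10 in HS578T (17.9%). MDA-MB-231 DKK1 was higher in shNT by 1.44 ± 0.13 on the log2 scale (SE, adjusted p = 9.72e-07), a larger change than any NRP1 reagent gave it in that line. AXIN2 was higher in shNT too, at 2.23, 1.88 and 2.16 TPM against 0.88, 1.02 and 0.88 TPM (log2 difference 1.09, adjusted p = 0.000512), without overlap. Neither call was lost when a sample was left out. The receptors FZD7 (0.59, adjusted p = 0.0192) and FZD2 (0.45, adjusted p = 0.0414) were also higher in shNT, FZD7 not without shNT replicate 2 (0.0634) or siNT replicate 1 (0.104), and FZD2 lost in 11 of 18 fits (adjusted p of at most 0.176).

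In SUM159PT, both WNT5 ligands and DKK3 were lower in shNT. WNT5A differed by -0.99 (adjusted p = 0.0155), WNT5B by -1.49 (adjusted p = 0.0143) and DKK3 by -0.86 (adjusted p = 0.0297), none with overlapping groups in CPM. WNT5A was lost without shNT replicate 1 (0.0555) or 3 (0.0728), WNT5B without siNT replicate 2 (0.0501), and DKK3 in 5 of 17 fits (adjusted p of at most 0.0937). HS578T DKK1 was higher in shNT, at 4.56, 15.32 and 22.66 TPM against 1.07, 1.56 and 3.18 TPM (log2 difference 2.60, adjusted p = 0.0224). It was lost without shNT replicate 2 (0.0594) or 3 (0.0793) or siNT replicate 1 (0.095) or 2 (0.0818). HS578T DKK3 stood at 75.51, 21.8 and 22.85 TPM in shNT against 107.2 to 132.2 TPM in siNT, a log2 difference of -1.59 with an adjusted p of 0.0944. It passed with DESeq2 (0.0429), limma on TPM (0.0295), a replicate block (0.0205) and no filter on low counts (1.74e-07).

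Among a wider list of 78 Wnt pathway genes, 12 were too low to be tested in any line. Of 704 tests over the 12 comparisons 112 passed, 37 higher and 75 lower, or 15.9% beside 11.3% of all genes tested. Calls over all genes leaned lower in some comparisons (2143 higher and 2680 lower in MDA-MB-231 siNRP1#3). They leaned higher in others (1989 and 1678 in HS578T siNRP1#5). Whether the list leaned lower than all genes was not tested. By role, receptors passed in 29 of 180 tests (7 higher, 22 lower), ligands in 20 of 132 (10 and 10), inhibitors in 17 of 84 (10 and 7), transducers in 21 of 156 (4 and 17) and target genes in 13 of 60 (3 and 10). Amplifiers passed in 8 of 68 (2 and 6) and secretion genes in 4 of 24 (1 and 3). CTNNB1, which encodes beta-catenin itself, fell in all 3 lines with siNRP1#3. It was at 25.32 to 32.09 TPM in SUM159PT siNRP1#3 against 75.48 to 145 TPM in siNT, at 53.56 to 77.32 TPM against 198.9 to 222.4 TPM in MDA-MB-231, and at 15.99 to 23.25 TPM against 48.85 to 66.88 TPM in HS578T. No group overlapped its control. The log2 fold changes were -2.01 ± 0.222 (adjusted p = 0.000136), -1.67 ± 0.108 (adjusted p = 5.95e-09) and -1.54 ± 0.17 (adjusted p = 0.000168), with SE. With the other 3 reagents CTNNB1 passed in no line, at log2 fold changes of -0.25 to 0.37. TNFRSF19, a target gene of the list, likewise fell with siNRP1#3 in each line, by 2.86 in HS578T, 1.47 in SUM159PT and 1.17 in MDA-MB-231.

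Several other genes of the list passed in 3 or more comparisons in one direction. The Frizzled receptor FZD6 fell in 4, from 13.24 to 15.87 TPM in MDA-MB-231 siNT to 1.70 to 3.59 TPM with siNRP1#5 (log2 fold change -2.12 ± 0.176, adjusted p = 5.68e-08) and by 2.47 on the log2 scale in SUM159PT siNRP1#5. FZD1, FZD4 and FZD8 each fell in 3, all in siRNA groups of SUM159PT and MDA-MB-231, with FZD8 rising in MDA-MB-231 shNRP1#5 (1.35). KREMEN1, which binds Dickkopf proteins at the cell surface, fell in 5, at 1.70 to 2.78 TPM in SUM159PT siNRP1#5 against 11.99 to 14.42 TPM in siNT. NOTUM, an enzyme that inactivates Wnt ligands, rose in 3, to 10.80 to 13.11 TPM in SUM159PT shNRP1#5 from 1.14 to 1.83 TPM in shNT (log2 fold change 2.84 ± 0.506, adjusted p = 0.00305). WNT10A rose in 4, most in SUM159PT shNRP1#5, from 0.24 to 0.76 TPM to 14.01 to 52.88 TPM (log2 fold change 5.97 ± 0.593, adjusted p = 4.05e-05). WNT9A, WNT10B, APCDD1, TCF7 and CSNK1A1 fell in 3 each. TCF7, a DNA-binding partner of beta-catenin, rose in MDA-MB-231 siNRP1#5 (0.66), APCDD1 in SUM159PT shNRP1#5 (2.47) and WNT9A in HS578T siNRP1#5 (1.19).

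The genes whose pattern was most like that of each member were found by Pearson correlation over the 18 group means of log2 CPM, after taking out the mean of each line. As a description, LRP6 was nearest to HIPK3 (r = 0.956), USP34 (0.954) and ATXN7 (0.94), WNT5B to WTIP (0.921) and DKK3 to ICAM5 (0.931). DKK1 was nearest to RASAL2 (0.898), RBPJ (0.872) and PTPN14 (0.865), FZD7 to GANAB (0.875), WNT7B to PRKACA (0.858) and FZD2 to LAMA4 (0.855). AXIN2 came nearest to LINP1 (0.83). WNT5A (ACYP2, 0.769) and SFRP1 (TMEM69, 0.732) had the loosest matches, and both averaged under 1 CPM in at least 1 line. Among the members themselves the closest pair was FZD7 and LRP6 (r = 0.679), and LRP6 and WNT5B were the most opposed (r = -0.654). Groups of a line share its cells and the 2 delivery arms, and no p is given.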

How the data were processed

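RNA was measured by stranded polyA sequencing on an MGI instrument. The authors trimmed reads with Trim Galore 0.6.5, aligned them to GRCh38 with STAR 2.7.2b and quantified genes and transcripts with RSEM 1.3.3, and they removed outlier samples before deposit. The deposited expected counts per gene are estimates that were rounded here to whole numbers before testing. The deposited TPM values are scaled by the authors for transcript length and library and served for levels. The deposited isoform percent gives the share of a gene assigned by the authors to each transcript. The number of columns without a matching sample was 0.

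Members and gene lists were chosen with earlier results of these data known. Named genes were the 10 members, NRP1, genes of the wider list of 78 that passed in 3 or more of the 12 knockdown comparisons in one direction, and the 3 genes most correlated with each member. Each cell line was fitted with its 6 group means by edgeR 4.0.16 (R 4.3.3; filterByExpr, TMM, robust quasi-likelihood), on 20067 (SUM159PT), 18800 (MDA-MB-231) and 19661 (HS578T) genes. Mean changes over lines, unequal changes and differences between lines came from 1 fit of all 52 samples and 18 groups (23416 genes). P-values were two-sided and adjusted by Benjamini-Hochberg over all genes tested, with a threshold of 0.05. Confidence intervals are from the same fits.

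Reads of another line were estimated in each library from marker genes and, as an alternative, subtracted. Other alternatives were RLE size factors, no filter on low counts, a replicate block, DESeq2 1.42.0, limma 3.58.1 on log2(TPM + 0.5), fits of the compared groups alone and leaving out each sample. The subtraction with single-line markers and the fits without whole groups were chosen after seeing the data. Numbers were taken to pair samples where a comparison had 3 same-numbered pairs and each correlated by over 0.1, which held in 6 comparisons: SUM159PT siNRP1#3 and shNRP1#3, MDA-MB-231 siNRP1#5, shNRP1#3 and shNT against siNT, and HS578T shNRP1#5. In MDA-MB-231 siNRP1#5 these correlations were 0.634, 0.58 and 0.59. The pairing rests on the shared replicate number and these correlations.

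The script was tested on simulated counts with 100 genes changed at each size. For a log2 change of 2 it recovered 59% in SUM159PT siNRP1#3, 84% in MDA-MB-231 siNRP1#3 and 50% in HS578T siNRP1#3, and for a log2 change of 1 it recovered 13%, 64% and 6%. For unequal change over lines with siNRP1#3 it recovered 47% and 9%.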

Additional observations from a re-analysis of the deposited data

Results flagged for a closer look

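Members whose change differed between groups by a test of the difference itself were as follows. In MDA-MB-231, the siNRP1#5 change differed from the shNRP1#5 change for WNT7B (adjusted p = 1.14e-05), DKK1 (adjusted p = 0.02) and WNT5A (adjusted p = 0.0218) by edgeR. The change with siNRP1#5 was unequal over the 3 lines for WNT7B (adjusted p = 0.00121), FZD2 (adjusted p = 0.0151), DKK1 (adjusted p = 0.0391) and LRP6 (adjusted p = 0.0449). With shNRP1#5 it was unequal for FZD2 (adjusted p = 0.0213). None of the 4 unequal changes with siNRP1#5 passed without the HS578T siNRP1#5 group, the libraries that held MDA-MB-231 RNA by the marker estimate. That fit compares only SUM159PT with MDA-MB-231 and cannot test whether HS578T changed differently. With the reads of other lines subtracted, WNT7B, DKK1 and FZD2 still passed and LRP6 did not. All 4 were lost when some replicate number was left out.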

How the results depend on the processing

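Of 81 member calls over all comparisons, 37 were kept in every alternative run and 44 were lost in at least 1. Of 1509 pairs of a call and an alternative, 1266 were kept and 2 reversed. Both reversals were DKK3 in MDA-MB-231 after subtraction of other lines' reads, at -0.64 for shNRP1#3 against shNT and 0.85 for shNRP1#5 against shNRP1#3. Without the filter on low counts, 29 members passed in the knockdown comparisons (19 with it), 16 in the mean over lines (10), 13 in shNT against siNT (8), 12 for unequal change (5) and 5 for siNRP1#5 against shNRP1#5 (3). That last count was also 5 with DESeq2 and 5 with the replicate block. The replicate block gave 21 member calls in the knockdown comparisons and, in the 6 comparisons where the numbers paired samples, ended the call of FZD2 in MDA-MB-231 siNRP1#5 (0.41, adjusted p = 0.0517) and no other. Without the HS578T siNRP1#5 group 1 unequal change passed, that of FZD2 with shNRP1#5. Without that group and MDA-MB-231 shNRP1#3, 12 members passed in the knockdown comparisons, 5 for sequence #5 against #3 and 1 for unequal change, with fewer comparisons left. The cause of the other shifts was not tested. Leaving out samples gave 15 to 22 calls in the knockdown comparisons, 3 to 9 in the mean over lines, 6 to 10 in shNT against siNT, 23 to 24 between lines, 1 to 2 for unequal change, 2 to 5 for siNRP1#5 against shNRP1#5 and 10 to 14 for #5 against #3. For the mean over lines the counts were 5, 3 and 9 without replicate 1, 2 and 3, and each of the 10 calls was lost in at least 1 of these fits. Of the 19 knockdown calls limma on TPM kept 13, DESeq2 19 and fits of the compared groups alone 12. WNT5A and SFRP1 in MDA-MB-231 and SFRP1 in SUM159PT had too few counts for small changes to be detected.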
